A study of Mus musculus with 25 samples.

Results

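The 38 genes described here are Ppara, which encodes the nuclear receptor PPAR-alpha, and 37 genes of fatty acid oxidation in mitochondria and peroxisomes, most of them known targets of that receptor. They were picked out by gene symbol, from a list drawn up with earlier results of these data known, and each was found at 1 locus in both cohorts of the study, out of 46499 loci at 20 weeks and 46052 at 39 weeks. All 38 passed the filter of a mean of at least 1 FPKM (fragments scaled to transcript length and to library size), and are among the 10963 loci tested at 20 weeks and 11441 at 39 weeks. The series concerns metformin, a glucose-lowering drug, and liver cancer in mice that carry 1 altered copy of Ncoa5, whose product assists nuclear receptors. Liver RNA of 25 C57BL/6 mice on a standard rodent diet was sequenced, with 1 library per mouse.

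At 20 weeks there were 4 wild type mice and 4 animals labelled Ncoa5+/-, none of them given metformin. At 39 weeks the wild type groups held 4 untreated and 3 metformin-treated mice, and the groups labelled Ncoa5+/- held 5 of each. The drug was dissolved in drinking water, with an intake near 250 mg/kg daily, from week 8 for 31 weeks. How the Ncoa5 allele was made and the sex of the mice are not given in the sources used here. Libraries of the younger cohort were prepared at one facility and those of the older cohort at another, so each cohort was analysed apart and no level is compared between ages.

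PPAR-alpha is activated by fatty acids, binds DNA as a pair with the retinoid X receptor, and in the fasted liver raises transcription of genes that import and burn fatty acids. Long-chain fatty acids are joined to coenzyme A, carried into mitochondria as carnitine esters, and shortened in rounds of dehydrogenation, hydration, a further dehydrogenation and thiolytic cleavage. Peroxisomes shorten very long chains before passing them on, and in rodents PPAR-alpha agonists also make peroxisomes multiply.

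The pair binds a direct repeat, the letters AGGTCA written in a row with 1 base of any kind between the copies. RefSeq promoters (GRCm38.p6, 250 bases before to 50 after each start) were matched for 33 of the 38 genes, 37 promoters in all. With up to 2 mismatches over the 12 fixed letters, on both strands, the repeat was found in 3 of the 37 promoters (8.11%) and in 1268 of all 32851 promoters (3.86%). It was found without a mismatch in 0 of the 37 and in 13 of all. A single AGGTCA, which the repeat contains, on either strand was in 18.9% of the 37 and 16.3% of all. A match of letters is a description of these windows and no evidence of binding. The 3 stretches with a match are printed from the RefSeq table because this repeat is the element PPAR-alpha is known to bind, with the matching letters in capitals and each read along its gene's strand. In Etfa and Acot4 the repeat reads on the opposite strand.
Etfa, chr9:55512244-55512363, minus strand: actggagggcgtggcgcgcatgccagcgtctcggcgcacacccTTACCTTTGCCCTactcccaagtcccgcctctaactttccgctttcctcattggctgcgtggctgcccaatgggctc
Slc25a20, chr9:108662134-108662162, plus strand: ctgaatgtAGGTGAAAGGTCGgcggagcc
Acot4, chr12:84038259-84038378, plus strand: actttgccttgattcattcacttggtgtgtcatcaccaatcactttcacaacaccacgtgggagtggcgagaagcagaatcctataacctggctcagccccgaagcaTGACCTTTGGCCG

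Hadha and Hadhb, which encode the alpha and beta subunits of the mitochondrial trifunctional protein, lie head to head on chromosome 5. Hadhb is the gene whose levels separated the treated from the untreated mice most clearly below, so the 72 bases between the 2 RefSeq starts are printed, read along the plus strand, with nothing to mark in capitals.
Hadha to Hadhb, chr5:30155181-30155252, plus strand: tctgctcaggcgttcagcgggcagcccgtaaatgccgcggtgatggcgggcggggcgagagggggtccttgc
G and C made up 70.8% of this stretch, and it held 0 matches to the repeat.

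Ncoa5 did not separate the genotype labels. Its levels at 20 weeks were 3.56, 3.11, 5.299 and 4.08 FPKM in the wild type mice and 3.88, 2.899, 5.03 and 3.61 FPKM in the animals labelled Ncoa5+/-. At 39 weeks they were 4.28, 4.68, 4.12 and 3.604 FPKM in untreated and 3.68, 3.58 and 6.64 FPKM in treated wild type mice, and 4.42, 3.58, 2.63, 3.67 and 4.31 FPKM in untreated and 3.32, 3.87, 3.88, 3.07 and 3.63 FPKM in treated animals labelled Ncoa5+/-. The ranges overlapped in each comparison of labels, so every genotype below is the label. No read counts were given in the files used here, so depth is unknown and precision rests on the spread between mice, which is all that the p-values measure. In 3 libraries the 50 highest loci held over 70% of the FPKM sum, namely wild type replicate 4 at 20 weeks, untreated Ncoa5+/- replicate 3 and treated Ncoa5+/- replicate 5 at 39 weeks. Of 11 hepatocyte markers 10 were found, of which Alb and Serpina1a were listed at 0 in every mouse and Ttr, Apoa1 and Cyp3a11 in some groups. The 10 together summed to between 4889 and 27274 FPKM. These sums cannot be compared between groups in which different markers were at 0. Kidney and muscle markers summed to at most 0.285 FPKM in any mouse. Fewer cells of a type and less RNA per cell cannot be told apart in whole liver.

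Per length of transcript, the 38 genes ran from among the most abundant liver transcripts to levels near the filter. At 39 weeks the highest mean levels over all 17 mice were those of Acaa1b, a peroxisomal thiolase, at 987 FPKM, Acaa2, the last mitochondrial thiolase, at 794 FPKM, and Slc27a2, a very-long-chain acyl-CoA synthetase and fatty acid transporter, at 549 FPKM. The electron transfer flavoprotein subunits Etfb and Etfa, which take electrons from the acyl-CoA dehydrogenases, came next at 468 and 341 FPKM. The lowest were Pdk4, a kinase that shuts off pyruvate dehydrogenase, at 1.56 FPKM, and Acot2, a mitochondrial acyl-CoA thioesterase, at 3.67 FPKM. Ppara itself, at 55.9 FPKM, ranked 31 of 38. At 20 weeks Slc27a2 led at 676 FPKM, followed by Acaa2 at 668 FPKM and Etfb at 555 FPKM, and Pdk4 was again the lowest at 1.24 FPKM. Neighbours in this order mostly overlapped between mice, as Slc27a2 did with Acaa2 at 20 weeks, at 438 to 882 against 545 to 743 FPKM. Near-identical copies limit some levels: of 50-base windows in the longest GENCODE transcript, 67.3% of Etfb, 35.5% of Acaa1b, 27.7% of Acot2, 19.5% of Acot3, 18.7% of Acot1 and 16.2% of Acaa1a also occur in another gene, so reads could be split between copies. Acad11, Crot, Acads and Etfb in both cohorts, and Etfdh at 39 weeks only, are each listed under a name joined with a neighbouring or overlapping gene. Reads of that gene could count towards them. The plot of levels in every mouse shows the order.

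**Figure D1:**
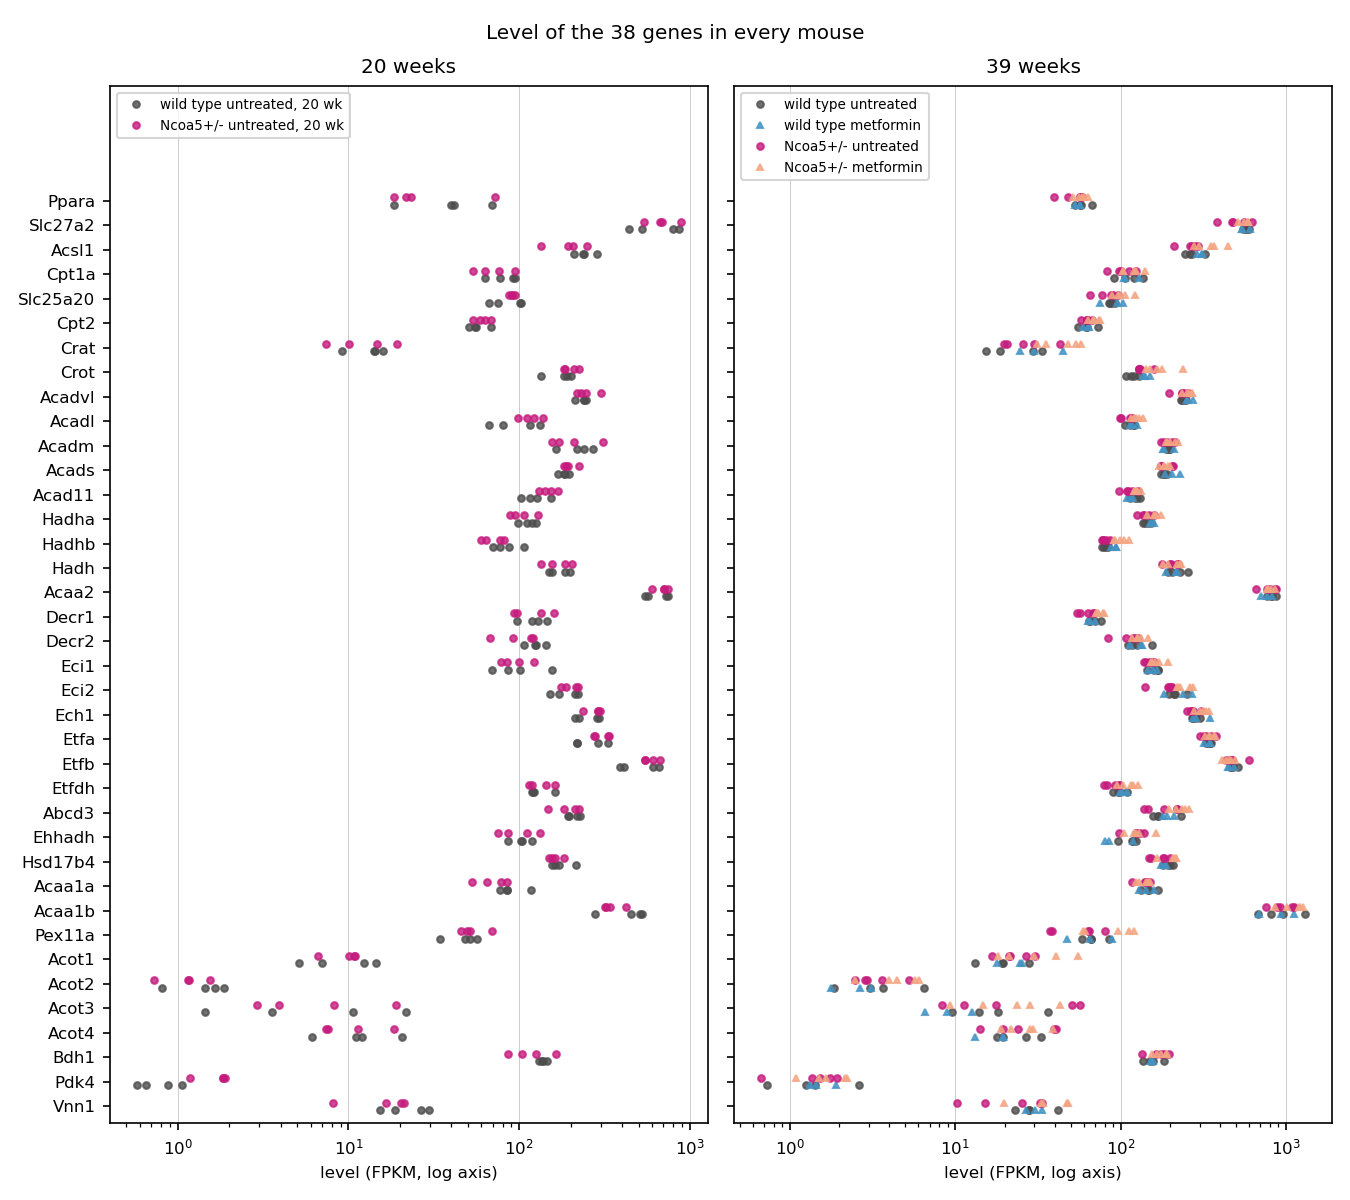
Level in FPKM (log axis) of each of the 38 genes, from Ppara at the top through uptake, the carnitine shuttle, mitochondrial and peroxisomal enzymes to Vnn1, with 1 point per mouse at 20 weeks (left) and 39 weeks (right), coloured by genotype label and treatment. Acaa1b, Acaa2 and Slc27a2 stand at the right at 39 weeks and Pdk4 and Acot2 at the left, and the groups overlap in most genes.

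The genes differed greatly in how much they varied among mice of 1 group. At 39 weeks the SD of log2(FPKM + 1) within groups was 0.90 for Acot3, a peroxisomal thioesterase, 0.52 for Vnn1, a pantetheinase, and 0.44 for Crat, carnitine acetyltransferase. It was 0.09 for both Hadhb and Etfa, so 4.06% and 4.80% of all loci varied less than these genes. Over the cohort at 39 weeks, Acot3 ranged from 6.58 to 56.7 FPKM, an 8.62-fold span, while Etfa ranged from 302 to 377 FPKM. Ppara was steady at 39 weeks, with an SD of 0.16, but not at 20 weeks, where the SD was 0.82 and its level ran from 18.5 to 71.9 FPKM.

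Members tended to be high or low in the same mice, with exceptions at both ages. With group means taken out, the median Pearson correlation over the 703 pairs of genes was 0.25 over 8 mice at 20 weeks and 0.40 over 17 mice at 39 weeks, against 0.00 over all pairs of tested loci in each cohort. At 20 weeks 63.4% of pairs were positive, against 50.2% over all loci, and at 39 weeks 85.8% were, against 50.3%. Leaving out 1 mouse at a time gave 0.14 to 0.32 at 20 weeks and 0.31 to 0.45 at 39 weeks. Values from a mouse share its library, so this is a description. Crot and Etfb had the lowest median correlations to the other members at 39 weeks, at -0.02 and 0.06, whereas Decr1 had 0.64, Vnn1 0.60 and Acot3 0.60. At 20 weeks the median was negative for Pdk4 at -0.42, Cpt2 at -0.35, Crot at -0.26, Acaa1a at -0.19 and Crat at -0.17, whereas Hadh had 0.52. In the colour map of single mice, replicate 3 of the treated animals labelled Ncoa5+/- was above its cohort mean in 37 of 38 genes and replicate 5 of the untreated animals labelled Ncoa5+/- in 2 of 38.

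**Figure D2:**
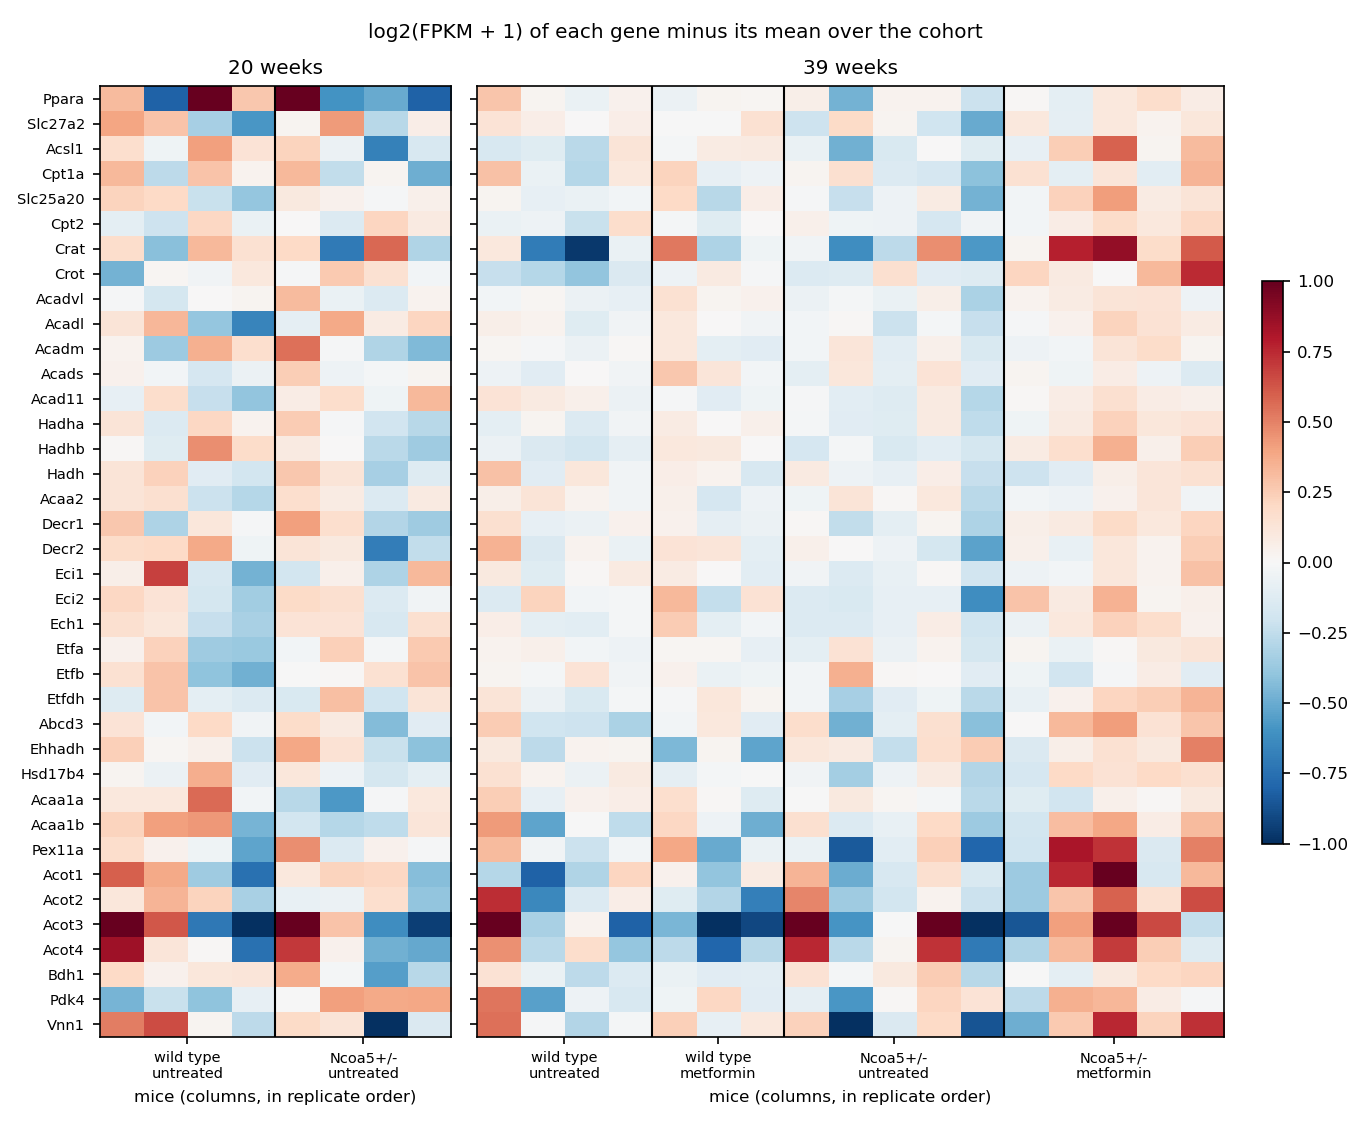
Each gene's log2(FPKM + 1) in every mouse minus that gene's mean over its cohort (rows, genes; columns, mice in replicate order within a group; red above, blue below, colours end at 1 log2 unit). Some columns are nearly of 1 colour, as treated Ncoa5+/- replicate 3, where 37 of 38 genes are above the mean.

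The comparison of genotype labels at 20 weeks asks whether the genes differed before the older age and without the drug. The 38 genes scattered around no difference: 18 (against 54.4% of loci) had a higher and 20 a lower mean log2(FPKM + 1) in animals labelled Ncoa5+/-. Higher and lower means are counted on that scale here and below. The members' median log2 fold change was -0.03, against 0.03 over all loci, and ranged from -0.14 to 0.05 over the alternatives. By limma, 0 of the 38 and 0% of the 10963 loci passed an adjusted p under 0.05. At an unadjusted p under 0.05, 1 member (2.63%) was higher, against 5.05% of loci, and 0 were lower, against 2.43% of loci. That count was 2 without wild type replicate 2, 0 with a filter at a mean of 5 FPKM, which removes that gene, and 5 with array weights. The share of loci ranged from 1.93% to 20.7% over the alternatives, the highest being that with array weights. The 95% interval lay within 1 log2 unit of 0 for 35 of the 38 genes.

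The member with the smallest p was Pdk4 (chr6:5483351-5496309, GRCm38), the kinase that spares pyruvate when fat is burned. Levels were 0.579, 0.874, 0.652 and 1.06 FPKM in the wild type mice and 1.18, 1.902, 1.83 and 1.85 FPKM in the mice labelled Ncoa5+/-. Every one of the 4 animals labelled Ncoa5+/- exceeded the highest wild type mouse, which 2.96% of loci did in that direction. The log2 fold change was 0.58 ± 0.15 (SE), with adjusted p = 0.603 by limma. At levels this near the filter the value rests on the pseudocount: it was 1.02 with 0.1 and 0.21 with 5 in place of 1, and the group means were 1.69 ± 0.341 FPKM against 0.791 ± 0.218 FPKM (SD, n = 4 each). Its adjusted p was 0.073 at the lowest, with array weights, and 0.97 at the highest. Acad11, an acyl-CoA dehydrogenase with a wide substrate range, had 128, 153, 115 and 102 FPKM in the wild type mice and 142, 153, 131 and 169 FPKM in the animals labelled Ncoa5+/-. Long-chain acyl-CoA dehydrogenase Acadl had 115, 133, 80.04 and 66.2 FPKM in wild type and 99.01, 137, 112 and 122 FPKM under Ncoa5+/-. For Acad11 only wild type replicate 2 lay within the range of the animals labelled Ncoa5+/-, and for Acadl wild type replicates 1 and 2 did.

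The lower side was led by Acaa1a, Decr2 and Acsl1. Acaa1a, the second peroxisomal thiolase, had 84.8, 84.9, 117 and 77.3 FPKM in the wild type mice and 64.9, 52.7, 78.1 and 85.02 FPKM in the animals labelled Ncoa5+/-, a log2 fold change of -0.38 ± 0.19. Decr2, peroxisomal dienoyl-CoA reductase, had 124, 126, 143 and 106 FPKM in wild type and 119.9, 117, 67.4 and 92.05 FPKM under Ncoa5+/-. Acsl1, which activates long-chain fatty acids, had 241, 209, 285 and 236 FPKM in wild type and 250.2, 206, 134 and 192 FPKM under Ncoa5+/-. In all 3 genes the groups overlapped, and replicate 3 of the animals labelled Ncoa5+/- was the lowest of all mice for Decr2 and Acsl1.

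Ppara had 41.5, 18.5, 69.5 and 40.1 FPKM in the wild type mice and 71.9, 21.6, 23.1 and 18.5 FPKM in the animals labelled Ncoa5+/-. Replicate 1 of the latter was the highest of all 8 mice and the other 3 were low. Cpt1a, the carnitine palmitoyltransferase that sets the pace of mitochondrial entry, had 94.4, 62.6, 91.95 and 77.1 FPKM in wild type and 94.4, 63.3, 76.6 and 53.4 FPKM under Ncoa5+/-. Ehhadh, the peroxisomal bifunctional enzyme, had 118, 102, 104 and 86.3 FPKM in wild type and 132, 111, 85.9 and 75.03 FPKM under Ncoa5+/-. Neither gene separated the labels. Acot1, the cytosolic acyl-CoA thioesterase, had 14.5, 12.3, 7.02 and 5.12 FPKM in wild type and 10.03, 10.9, 10.8 and 6.64 FPKM under Ncoa5+/-. Vnn1 had 26.7, 29.5, 18.8 and 15.2 FPKM in wild type and 21.1, 20.2, 8.07 and 16.5 FPKM under Ncoa5+/-, again with overlap. Of 15 fasting-response genes 14 were higher in the animals labelled Ncoa5+/-, with a median log2 fold change of 0.49, and 0 of 10 lipogenic genes tested were higher. Other lists of the pathway did not share that lean to higher means. Of 24 further PPAR-alpha target genes tested 12 were higher, with a median of 0.003. PPAR-alpha partners and coregulators were higher in 9 of 18 cases, with a median of -0.02. Ketogenesis and other oxidation genes were higher in 5 of 19 cases and other peroxisomal lipid genes in 5 of 20, each with a median of -0.09. Over all loci tested 54.4% were higher, with a median of 0.03. Kupffer cell and macrophage markers were lower in 10 of 10 cases, summing to 50.2 to 83.8 FPKM against 58.1 to 148 FPKM. Stellate cell markers were lower in 5 of 5 tested, at 56.0 to 78.8 against 56.9 to 84.8 FPKM, and endothelial markers in 6 of 8, at 37.9 to 64.9 against 53.6 to 71.1 FPKM. Erythroid markers were higher in 5 of 5, at 263 to 346 against 222 to 259.5 FPKM, and hepatocyte markers in 4 of 5 tested. The 1 lymphocyte and the 1 cholangiocyte marker tested were higher and the 1 adipocyte marker lower, and Lep was at 0 in all 8 mice. Limma called 0 of these genes at an adjusted p under 0.05. At an unadjusted p under 0.05, 3 fasting-response genes, 1 further PPAR-alpha target, 1 coregulator, 2 hepatocyte markers and 1 erythroid marker were higher, against 5.05% of loci. Lower at that p were 1 lipogenic gene, 2 further PPAR-alpha targets, 2 ketogenesis and oxidation genes and 1 peroxisomal gene, against 2.43% of loci. So were 4 Kupffer cell and macrophage, 2 stellate cell and 1 endothelial marker. The share of loci higher at that p ranged from 1.93% to 20.7% over the alternatives. The part of these lists in the values above was not tested.

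At 39 weeks without metformin, 28 of the 38 genes had a lower and 10 a higher mean (against 44.5% of loci higher) in animals labelled Ncoa5+/-, with a median log2 fold change of -0.05 against -0.02 over all loci. By limma the called genes numbered 0 of the 38 at an adjusted p under 0.05, against 0.262% of loci, and at an unadjusted p under 0.05 the members counted 0 in either direction, against 2.81% of loci in each. Without replicate 5 of the untreated animals labelled Ncoa5+/-, 17 of the 38 genes were higher and 1 had an unadjusted p under 0.05. That mouse was above its cohort mean in 2 of the 38 genes. Kupffer cell and macrophage markers were lower under Ncoa5+/- in 10 of 10 cases, with a median log2 fold change of -0.35, summing to 126 to 346 against 199 to 510.2 FPKM. Endothelial markers were lower in 7 of 8, with a median of -0.17, at 73.8 to 138 against 101 to 144 FPKM, erythroid markers in 5 of 5 and stellate cell markers in 4 of 8. Lymphocyte markers were higher in 3 of 3 tested and cholangiocyte markers in 2 of 3, and the 1 adipocyte marker tested was lower. By limma 0 of these markers were called, while at an unadjusted p under 0.05 1 cholangiocyte marker was higher and 1 endothelial and 1 adipocyte marker lower, and their part in the members' levels was not tested. The 95% interval lay within 1 log2 unit of 0 for 36 of the 38 genes.

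Crot (chr5:8966033-8997427), peroxisomal carnitine octanoyltransferase, had 121, 116, 108 and 128 FPKM in wild type mice without the drug and 129, 129, 159, 131 and 129 FPKM in the untreated animals labelled Ncoa5+/-. The lowest mouse labelled Ncoa5+/- was just above the highest wild type mouse, at 129 against 128 FPKM, a separation seen in 1.09% of loci. In the lower direction 0 members separated, against 0.717% of loci. The log2 fold change of Crot was 0.19 ± 0.12, with adjusted p = 0.913 by limma. Bdh1, which makes the ketone body beta-hydroxybutyrate, had 182, 158, 137 and 149.5 FPKM in wild type and 182, 163, 176, 196 and 136 FPKM under Ncoa5+/-. Acot1 had 19.4, 13.1, 19.1 and 27.8 FPKM in wild type and 30.4, 16.6, 21.2, 26.7 and 21.3 FPKM under Ncoa5+/-. Both overlapped between the labels. On the lower side, Acad11 had 131, 126, 123 and 114 FPKM in wild type mice and 118, 111, 109, 127 and 97.4 FPKM in animals labelled Ncoa5+/-. Slc27a2 had 598, 572, 547 and 569.9 FPKM in wild type and 473, 624, 556, 476 and 384 FPKM under Ncoa5+/-, and Hsd17b4, the peroxisomal D-bifunctional protein, had 208, 192, 180.2 and 200.02 FPKM in wild type and 184, 148, 181, 200.1 and 153 FPKM under Ncoa5+/-. These 3 genes also overlapped, and replicates 2 and 5 of the animals labelled Ncoa5+/- were the lowest for Hsd17b4.

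Under the label Ncoa5+/-, nearly all of the genes had higher means in the mice given metformin. Of the 38 genes, 35 had a higher mean in the 5 treated than in the 5 untreated mice, with a median log2 fold change of 0.19 against 0.00 over all loci, and 50% of all loci were higher. By limma, 0 of the 38 genes and 0% of the 11441 loci passed an adjusted p under 0.05, the smallest adjusted p among the members being 0.387. At an unadjusted p under 0.05, 19 of the 38 (50%) were higher, against 3.95% of loci, and 0 were lower, against 4.88%. That count was 10 without untreated replicate 5 and 12 without treated replicate 3, the lowest and the highest mouse of the cohort for these genes, and 15 without the 2 libraries in which 50 loci held over 70% of the FPKM sum. The number of higher genes was 30 and 33 without those single mice. The members covary, so their count is not that of independent genes.

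By role, 5 of 5 genes of the carnitine shuttle were higher in the treated animals labelled Ncoa5+/-, 4 of them with an unadjusted p under 0.05, and their median log2 fold change was 0.30. For uptake and activation it was 2 of 2, led by Acsl1 at 0.39 ± 0.12. For the acyl-CoA dehydrogenases it was 4 of 5, with a median of 0.15. The 4 mitochondrial genes of the later steps, Hadha, Hadhb, Hadh and Acaa2, were all higher with a median of 0.12, and the 5 auxiliary enzymes for unsaturated chains were all higher with a median of 0.22. All 6 genes grouped under the peroxisome (Abcd3, Ehhadh, Hsd17b4, Acaa1a, Acaa1b and Pex11a) were higher, with a median of 0.23. Of them 3 had an unadjusted p under 0.05. Peroxisomal enzymes grouped under other roles, such as Acot3, Crot and Decr2, are not counted here, and Acot3 had a lower mean. Of the 4 thioesterases 3 were higher, 0 at that p. Ppara itself was higher by 0.17 ± 0.10, with adjusted p = 0.65 by limma. The plot of log2 fold changes with intervals shows that the wide intervals belong to the thioesterases, Crat, Pex11a and Vnn1.

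**Figure D3:**
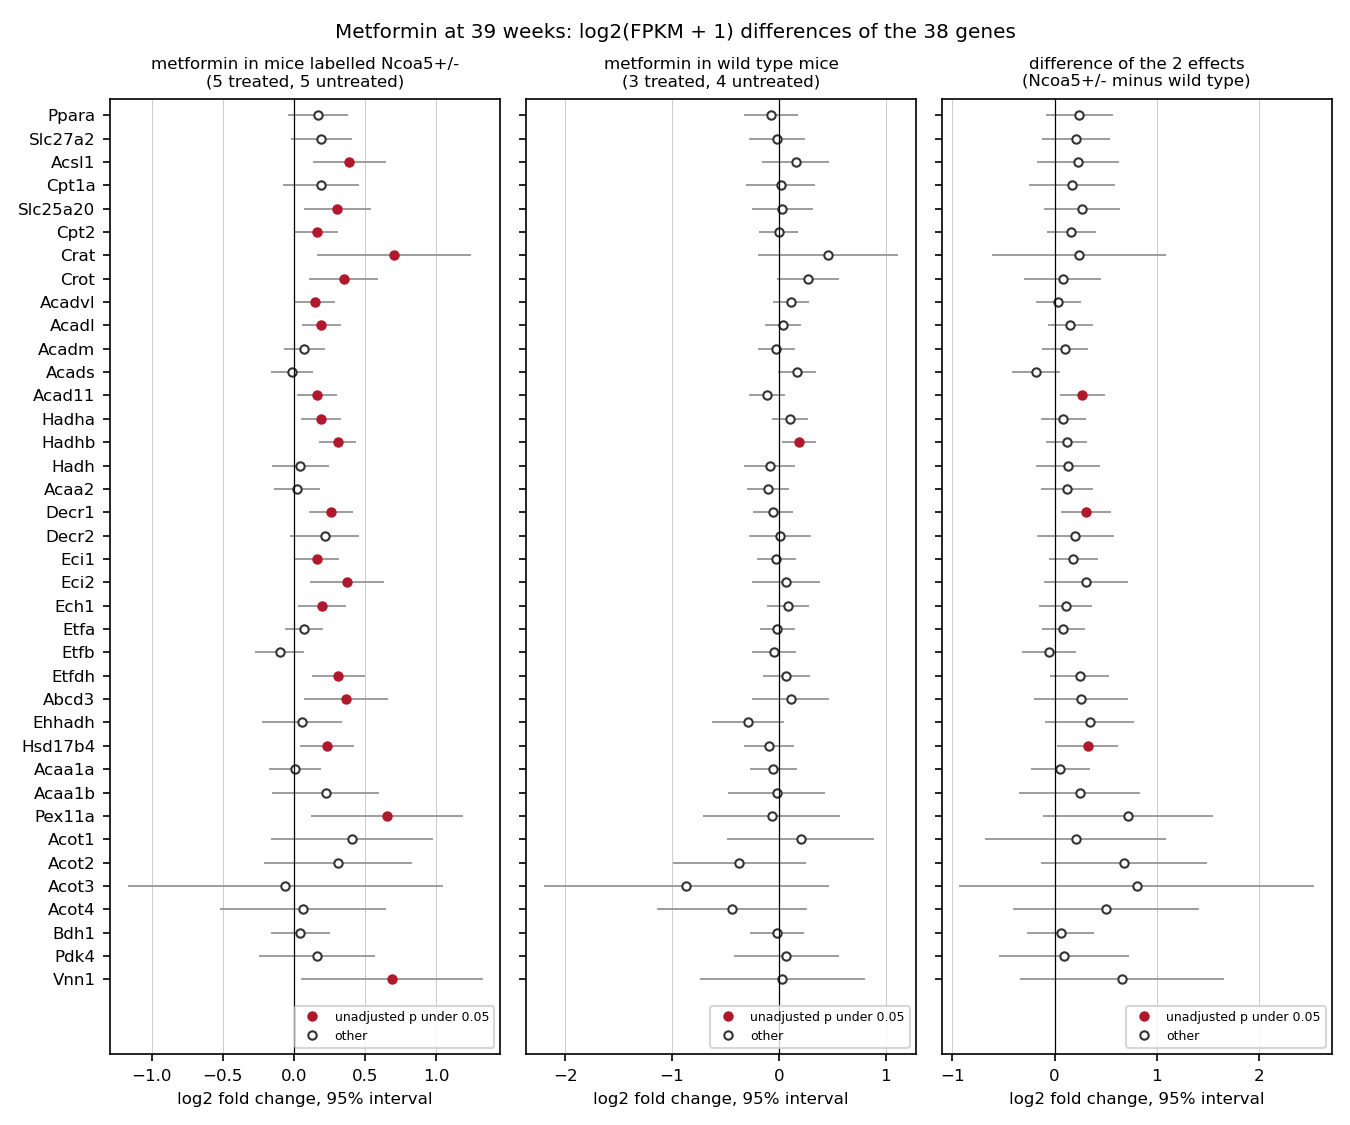
Log2 fold change on the log2(FPKM + 1) scale with its 95% interval from limma for each of the 38 genes, for metformin in animals labelled Ncoa5+/- (left), metformin in wild type mice (middle) and the difference of the 2 effects (right), filled points having an unadjusted p under 0.05. On the left 35 of 38 points lie above 0 and 19 are filled, in the middle 18 lie above 0 and 1 is filled, and on the right 36 lie above 0 and 3 are filled.

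Hadhb (chr5:30103584-30184593, an interval that the files also list for Hadha on the opposite strand), the thiolase subunit of the trifunctional protein, had 77.9, 86.4, 78.7, 81.5 and 77.3 FPKM in the untreated animals labelled Ncoa5+/- and 93.03, 98.8, 112, 90.6 and 104 FPKM in the treated ones. Every treated mouse was above every untreated mouse, which 0.804% of loci showed in that direction. The means were 80.4 ± 3.74 FPKM and 99.8 ± 8.76 FPKM (SD, n = 5 each), and the log2 fold change was 0.31 ± 0.06, with adjusted p = 0.387 by limma. Its partner Hadha had 148, 138, 137, 159 and 126 FPKM untreated and 145, 159, 176, 162 and 164 FPKM treated, a smaller shift with overlap. Etfdh (chr3:79603788-79632820), the oxidoreductase that hands the electrons to ubiquinone, had 98.1, 79.2, 92.5, 97.4 and 82.8 FPKM untreated and 95.3, 103, 116, 119 and 127 FPKM treated. Only treated replicate 1 fell within the untreated range, and the log2 fold change was 0.31 ± 0.09. Decr1 (chr4:15917240-15945507), mitochondrial dienoyl-CoA reductase, had 68.5, 57.2, 63.5, 69.4 and 54.7 FPKM untreated and 71.05, 72.6, 77.9, 73.3 and 79.1 FPKM treated, without overlap. Eci2, an enoyl-CoA isomerase found in peroxisomes and mitochondria, had 196, 194, 203, 204 and 139.9 FPKM untreated and 263, 229, 275, 219 and 223 FPKM treated, again without overlap. These 3 genes, Hadhb, Decr1 and Eci2, were the members that separated completely; 0 did so in the lower direction, against 0.769% of loci.

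Crat, which buffers acetyl-CoA as acetylcarnitine, had 30.1, 19.7, 25.6, 42.9 and 20.4 FPKM untreated and 31.4, 53.7, 57.6, 35.2 and 47.9 FPKM treated, a log2 fold change of 0.70 ± 0.26 that was the largest of the 38. Untreated replicate 4 lay within the treated range. Crot had 129, 129, 159, 131 and 129 FPKM untreated and 165, 151, 142, 177 and 239 FPKM treated, where untreated replicate 3 lay among the treated mice and treated replicate 5 stood far above. Pex11a, which drives the division of peroxisomes, had 64.6, 37.6, 63.2, 80.4 and 38.7 FPKM untreated and 59.1, 120.1, 113, 61.3 and 96.7 FPKM treated, so that treated replicates 2, 3 and 5 were above every untreated mouse and replicates 1 and 4 were not. Vnn1 had 33.3, 10.2, 25.5, 32.7 and 15.1 FPKM untreated and 19.8, 34.1, 48.4, 33.2 and 47.5 FPKM treated, with treated replicates 3 and 5 the highest and untreated replicates 2 and 5 the lowest. Acot1 had 30.4, 16.6, 21.2, 26.7 and 21.3 FPKM untreated and 18.2, 40.7, 55.4, 21.1 and 30.1 FPKM treated, where treated replicates 2 and 3 exceeded every untreated mouse.

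**Figure D4:**
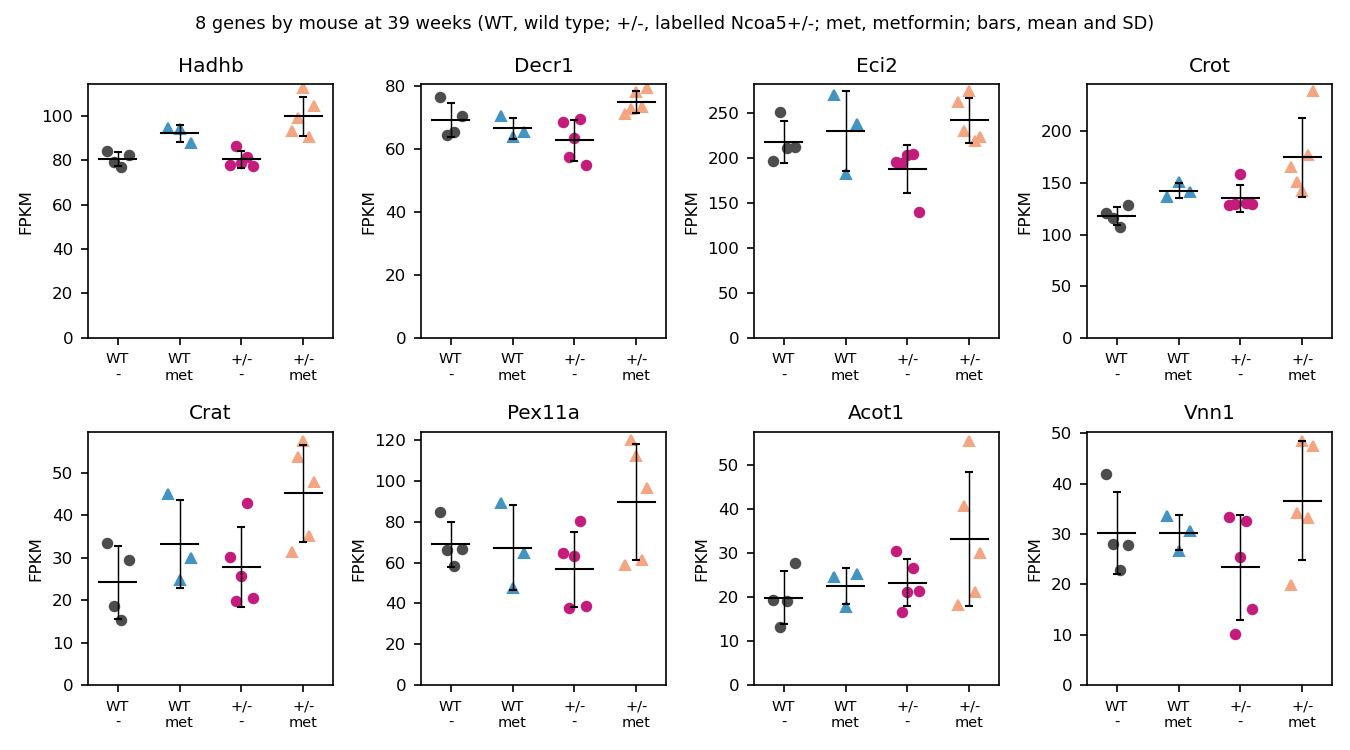
Level in FPKM of 8 genes in every mouse at 39 weeks (points), with the mean and SD of each group (bars), for wild type and Ncoa5+/- labels without and with metformin, each axis starting at 0. For Hadhb, Decr1 and Eci2 the treated animals labelled Ncoa5+/- are all above the untreated ones, and for Crot, Crat, Pex11a, Acot1 and Vnn1 the groups overlap.

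Ppara, Cpt1a, Ehhadh and Pdk4 overlapped widely between treated and untreated animals labelled Ncoa5+/-. Cpt1a had 113, 124, 101, 98.4 and 83.1 FPKM untreated and 124, 103, 121, 103 and 141 FPKM treated, a log2 fold change of 0.19 ± 0.13. Ehhadh had 125, 123, 98.1, 130.5 and 138 FPKM untreated and 105, 121, 129, 124 and 164 FPKM treated, and Pdk4 had 1.36, 0.675, 1.53, 1.92 and 1.76 FPKM untreated and 1.09, 2.22, 2.16, 1.65 and 1.49 FPKM treated. Untreated replicates 5 for Cpt1a, 3 for Ehhadh and 2 for Pdk4 were the lowest of these 10 mice. Ppara had 58.03, 39.8, 57.1, 57.1 and 47.8 FPKM untreated and 56.2, 51.8, 60.0, 63.1 and 58.7 FPKM treated, where untreated replicates 2 and 5 were the lowest and the other 3 lay within the treated range.

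The 3 genes with a lower mean log2(FPKM + 1) in the treated mice were Etfb, Acads and Acot3. Acot4 was counted as higher on that scale, although its mean level was 27.56 FPKM treated and 27.62 FPKM untreated. Etfb had 458, 597, 472, 469 and 431 FPKM untreated and 452, 409, 463, 492 and 432 FPKM treated, with untreated replicate 2 far above the rest and the groups otherwise overlapping. Short-chain acyl-CoA dehydrogenase Acads had 176, 204, 176, 208 and 174 FPKM untreated and 193, 183, 199, 182 and 172 FPKM treated, and its log2 fold change of -0.01 turned positive, to 0.00563, after quantile normalization and without any 1 of 3 mice. Acot3 had 56.7, 11.4, 17.6, 51.1 and 8.31 FPKM untreated and 9.27, 23.7, 43.2, 28.4 and 14.8 FPKM treated, with a log2 fold change of -0.06 ± 0.52 that turned positive without any 1 of 4 mice, at most to 0.27.

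Other cell types were measured beside this pattern. Between treated and untreated animals labelled Ncoa5+/-, 50% of all loci had a higher mean. Of 10 Kupffer cell and macrophage markers 9 did, summing to 230.3 to 324 FPKM treated against 126 to 346 FPKM untreated. Endothelial markers were higher in 6 of 8 cases, at 126 to 141 against 73.8 to 138 FPKM, and stellate cell markers in 4 of 8, at 114 to 133 against 79.4 to 113 FPKM. Erythroid markers were higher in 4 of 5 cases, at 497 to 1061 against 441 to 658 FPKM. Lymphocyte and cholangiocyte markers were higher in 0 of 3 tested each, and adipocyte markers summed to at most 8.90 FPKM in these 10 mice, with Lep at 0 in all. Limma called 0 of the markers at an adjusted p under 0.05. At an unadjusted p under 0.05, 2 stellate cell markers and 1 hepatocyte marker were higher, against 3.95% of loci. Their part in the members' levels was not tested.

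Averaged over the 38 genes, log2(FPKM + 1) relative to the cohort mean was -0.08 ± 0.18 in the 5 untreated and 0.14 ± 0.14 in the 5 treated animals labelled Ncoa5+/- (SD). Treated replicate 1, at -0.08, lay among the untreated mice. Untreated replicates 1, 3 and 4, at 0.07, -0.07 and 0.11, lay within the treated range of -0.08 to 0.31. In wild type mice the means were -0.03 ± 0.13 untreated (n = 4) and -0.05 ± 0.09 treated (n = 3). No test is given for this average, since the genes were chosen with earlier results known.

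**Figure D5:**
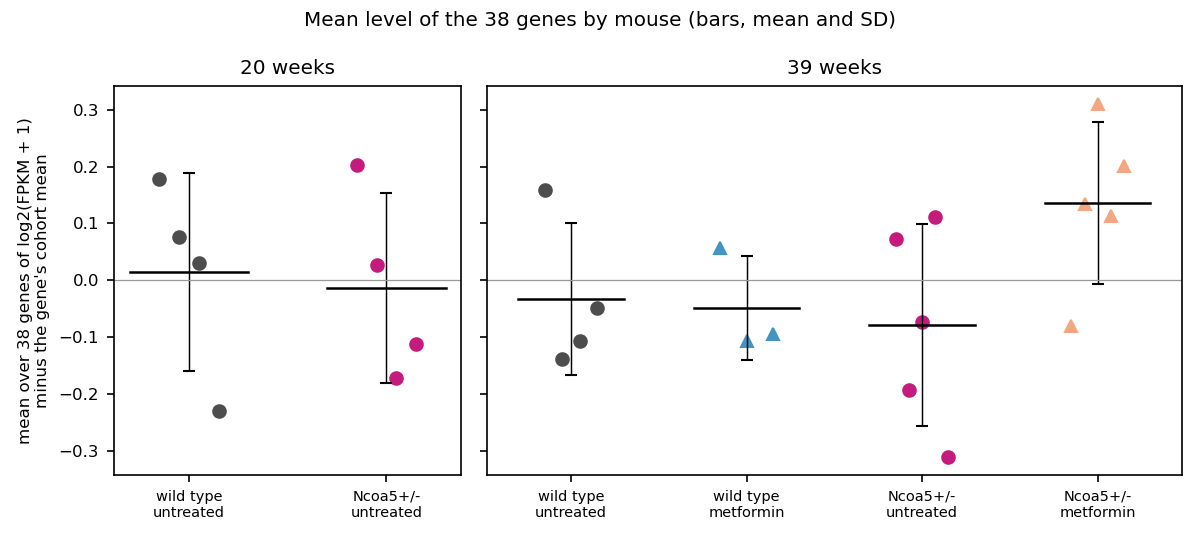
Mean over the 38 genes of log2(FPKM + 1) minus each gene's cohort mean, 1 point per mouse, with group mean and SD (bars), at 20 weeks (left) and 39 weeks (right). The treated animals labelled Ncoa5+/- centre on 0.14 and range from -0.08 to 0.31, and the other groups at 39 weeks centre between -0.08 and -0.03.

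In wild type mice metformin left the members on both sides of 0. Of the 38 genes 18 had a higher mean in the 3 treated than in the 4 untreated mice, against 47.4% of all loci, and the median log2 fold change was -0.01, as over all loci, and ranged from -0.04 to 0.04 over the alternatives. By limma the called genes numbered 0 of the 38 and 0% of loci at an adjusted p under 0.05. At an unadjusted p under 0.05, 1 member (2.63%) was higher, against 4.8% of loci, and 0 were lower, against 4.55%. That count was 0 without untreated replicate 3, treated replicate 1 or treated replicate 2. It was 2 without treated replicate 3, with libraries shifted to one median, without the libraries in which 50 loci held over 70%, and with only the compared groups fitted.

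That gene was Hadhb, with 84.1, 79.2, 76.96 and 82.1 FPKM in the untreated and 94.4, 93.8 and 87.7 FPKM in the treated wild type mice. All 3 treated mice were above all 4 untreated ones, which 4.37% of loci showed in that direction. In the lower direction 0 members separated, against 3.96% of loci. The log2 fold change of Hadhb was 0.19 ± 0.07, with adjusted p = 0.45 by limma. Crot separated in the same direction, with 121, 116, 108 and 128 FPKM untreated and 137, 151 and 141 FPKM treated, as did Acadvl, the very-long-chain acyl-CoA dehydrogenase, with 240.1, 249, 235 and 232 FPKM untreated and 273, 250.3 and 252 FPKM treated. Acads had 182, 175, 189 and 184 FPKM untreated and 227, 205 and 185 FPKM treated, and Crat had 33.4, 18.6, 15.4 and 29.5 FPKM untreated and 44.9, 24.8 and 29.98 FPKM treated, both with overlap. Towards lower means, Ehhadh had 124, 96.2, 119 and 118 FPKM untreated and 84.6, 118 and 79.9 FPKM treated. Acot3 had 36.4, 13.9, 18.1 and 9.63 FPKM untreated and 12.6, 6.58 and 8.91 FPKM treated, and Acad11 had 131, 126, 123 and 114 FPKM untreated and 118, 110.1 and 115 FPKM treated. In each of these the groups overlapped, with untreated replicate 1 the highest for Acot3 and Acad11.

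Ppara, Cpt1a, Acot1, Pdk4 and Vnn1 stayed within the spread of the untreated wild type mice. Ppara had 67.4, 56.8, 53.03 and 57.4 FPKM untreated and 53.3, 56.8 and 56.5 FPKM treated, and Cpt1a had 136, 106, 91.1 and 119.8 FPKM untreated and 129.8, 105 and 107 FPKM treated. Acot1 had 19.4, 13.1, 19.1 and 27.8 FPKM untreated and 24.5, 17.8 and 25.2 FPKM treated. Pdk4 had 2.63, 0.729, 1.43 and 1.25 FPKM untreated and 1.43, 1.89 and 1.33 FPKM treated, and Vnn1 had 41.9, 28.04, 22.9 and 27.8 FPKM untreated and 33.6, 26.7 and 30.5 FPKM treated. Every treated value of these 5 genes lay between the lowest and the highest untreated value. Ehhadh did not stay within that spread, with treated values of 84.6 and 79.9 FPKM below the lowest untreated value of 96.2 FPKM.

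Whether metformin acted differently under the 2 labels was tested by the interaction term. It was positive, which means a higher log2 fold change under the label Ncoa5+/-, for 36 of the 38 genes, against 52.3% of loci, with a median of 0.20 against 0.01 over all loci. Limma called 0 of the 38 and 0% of loci at an adjusted p under 0.05, with a smallest adjusted p of 0.991. At an unadjusted p under 0.05, 3 members (7.89%) were positive, against 1.19% of loci, and 0 were negative, against 1.6%. The count was 6 without treated Ncoa5+/- replicate 1 and 5 after quantile normalization. The 3 were Decr1 at 0.31 ± 0.11, Acad11 at 0.27 ± 0.10 and Hsd17b4 at 0.32 ± 0.14. Decr1 had 76.3, 64.2, 65.4 and 70.3 FPKM in untreated and 70.2, 63.8 and 65.4 FPKM in treated wild type mice, while Hsd17b4 in treated mice had 176, 185 and 188 FPKM under the wild type label and 167, 216, 208, 215 and 210.3 FPKM under Ncoa5+/-. Negative were Acads at -0.18 ± 0.11 and Etfb at -0.06 ± 0.13, the latter turning positive, to 0.04, after quantile normalization and to 0.02 without untreated Ncoa5+/- replicate 2. The 95% intervals of this difference lay within 1 log2 unit of 0 for 31 of the 38.

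Averaged over both labels, metformin went with a higher mean for 30 of the 38 genes, against 48.5% of loci, with a median log2 fold change of 0.10 against 0.00 over all loci. By limma 0 members passed an adjusted p under 0.05, against 0.035% of loci, while 11 (28.9%) had an unadjusted p under 0.05 in the higher direction, against 7.17% of loci, and 0 in the lower, against 8.06%. The count of 11 was 7 without wild type untreated replicate 3, untreated Ncoa5+/- replicate 5 or treated Ncoa5+/- replicate 3, and 6 without treated wild type replicate 1. Hadhb came closest, at 0.25 ± 0.05 with adjusted p = 0.063 by limma. All 8 treated mice, at 87.7 to 112 FPKM, lay above all 9 untreated mice, at 76.96 to 86.4 FPKM, and 8 of the 11441 loci (0.0699%) separated in that way, while 0 members and 0.0262% of loci did so in the lower direction. The adjusted p of Hadhb by limma passed the threshold under 6 of 27 alternatives, among them 0.0364 without treated Ncoa5+/- replicate 4 and 0.0487 without treated wild type replicate 3, and ranged up to 0.185. Crot followed at 0.31 ± 0.09 and Crat at 0.58 ± 0.20, with adjusted p of 0.123 and 0.182 by limma. Etfb, Ehhadh and Acot3 had lower treated means, at -0.07 ± 0.06, -0.12 ± 0.10 and -0.46 ± 0.41.

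Treated animals labelled Ncoa5+/- were also set beside wild type mice without the drug. This comparison shares its treated mice with that of metformin under the label Ncoa5+/- and its controls with that of metformin in wild type mice. Of the 38 genes 32 were higher, against 46.4% of loci, with a median of 0.15 against -0.01 over all loci. By limma the called genes numbered 0 of 38 at an adjusted p under 0.05, against 0.262% of loci, and 7 members (18.4%) had an unadjusted p under 0.05 in the higher direction, against 5.07% of loci, with 0 in the lower, against 7.04%. The 7 became 11 after quantile normalization, 3 without wild type replicate 3, without treated replicate 3 or without the libraries in which 50 loci held over 70%, and 4 without treated replicate 5. Hadhb, at 0.30 ± 0.06, and Crot, at 0.54 ± 0.12, separated completely, as 2.3% of loci did (0 members and 2.19% of loci in the lower direction), with adjusted p of 0.0715 and 0.0867 by limma. Either passed the threshold under some alternatives: Hadhb reached 0.0188 after quantile normalization and 0.0297 without treated replicate 4, and Crot reached 0.0422 without the libraries in which 50 loci held over 70%. Crat was at 0.90 ± 0.27, its untreated wild type mice at 15.4 to 33.4 FPKM and its treated mice at 31.4 to 57.6 FPKM. Lower means were led by Acaa1a at -0.10 ± 0.09, Etfb at -0.08 ± 0.09 and Hadh, the short-chain hydroxyacyl-CoA dehydrogenase, at -0.06 ± 0.10. Hadh had 257, 194, 227 and 205 FPKM in wild type and 181, 194, 219, 229 and 233 FPKM in the treated mice, and its difference turned positive, to 0.01, without wild type replicate 1.

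Between labels among the treated mice, 34 of the 38 genes were higher under Ncoa5+/-, against 47.7% of loci, with a median log2 fold change of 0.11 against -0.01 over all loci. Limma called 0 of 38 at an adjusted p under 0.05, against 0.157% of loci. At an unadjusted p under 0.05, 2 members (5.26%) were higher, against 2.09% of loci, and 0 were lower, against 2.26%. That count ranged from 0 to 9 over the alternatives. It was 9 after quantile normalization, 6 without treated Ncoa5+/- replicate 1 or with only the compared groups fitted, and 0 without treated wild type replicate 3. It was 1 without treated wild type replicate 2, without treated Ncoa5+/- replicate 5, with a filter at a mean of 5 FPKM, and without the libraries in which 50 loci held over 70%. Ehhadh had 84.6, 118 and 79.9 FPKM in treated wild type and 105, 121, 129, 124 and 164 FPKM in treated animals labelled Ncoa5+/-, with a log2 fold change of 0.45 ± 0.15 and adjusted p = 0.82 by limma. Acot2 had 3.105, 2.66 and 1.79 FPKM in wild type and 2.49, 4.43, 5.72, 3.98 and 6.03 FPKM under Ncoa5+/-, low levels with overlap. Acad11 and Decr1 separated, as 2% of loci did (0 members and 1.72% of loci did so in the lower direction), at 119.7 to 133 against 110.1 to 118 FPKM and 71.05 to 79.1 against 63.8 to 70.2 FPKM. Lower under Ncoa5+/- were Acads at -0.15 ± 0.08, Acaa1a at -0.05 ± 0.10 and Etfb at -0.04 ± 0.09, the last 2 turning positive, to 0.00412 and 0.06, after quantile normalization. Acaa1a had 159, 142 and 129 FPKM in wild type and 129.7, 124, 146, 142 and 151 FPKM under Ncoa5+/-, Etfb 482, 447 and 454 FPKM in wild type and 452, 409, 463, 492 and 432 FPKM under Ncoa5+/-, and Acads 227, 205 and 185 FPKM in wild type and 193, 183, 199, 182 and 172 FPKM under Ncoa5+/-, with overlap in each.

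Averaged over treatment, the labels at 39 weeks gave 22 higher means, against 44% of loci, and 16 lower ones, with a median of 0.01 against -0.01 over all loci. By limma the called genes numbered 0 of 38 at an adjusted p under 0.05, against 0.516% of loci, and 2 members (5.26%) had an unadjusted p under 0.05 in the higher direction, against 3.02% of loci, with 0 in the lower, against 3.18%. The 2 were Ehhadh at 0.28 ± 0.10 and Crot at 0.23 ± 0.09, followed by Bdh1 at 0.15 ± 0.08. That count was 5 without wild type untreated replicate 1 or untreated Ncoa5+/- replicate 5, 4 without treated Ncoa5+/- replicate 1 and 1 without treated wild type replicate 3. Lower means were led by Slc27a2 at -0.10 ± 0.08, Acaa1a at -0.08 ± 0.07 and Acads at -0.05 ± 0.06.

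Other genes of the pathway were read from lists chosen by function, with earlier results of these data known. Of 30 further PPAR-alpha target genes 25 were tested at 39 weeks. In animals labelled Ncoa5+/- all 25 had a higher mean with metformin, against 50% of loci. Their median log2 fold change was 0.36, against 0.00 over all loci. At an unadjusted p under 0.05, 12 of them were higher, against 3.95% of loci. Neither covariation nor leaving out single mice was examined for this list, so the counts are a description. Slc22a5, the carnitine importer, was at 0.52. In wild type mice the same list had 12 of 25 higher, against 47.4% of loci, and a median of -0.02. Fgf21, a fasting hormone, was at 1.504 there, from 3 treated and 4 untreated mice. The smallest adjusted p of the whole list in wild type mice was 0.499 by limma. Limma called 0 of these genes in either comparison, and 1 was higher at an unadjusted p under 0.05 in wild type mice, against 4.8% of loci. The partners and coregulators of PPAR-alpha were higher in 6 of 18 cases in animals labelled Ncoa5+/-, with the coactivator Crebbp at -0.20, and in 3 of 18 in wild type mice.

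Ketogenesis and other oxidation genes were higher with metformin in 9 of 19 cases in animals labelled Ncoa5+/- and in 6 of 19 in wild type mice. Over all loci 50% and 47.4% were higher. Other peroxisomal lipid genes were higher in 12 of 20 and 8 of 20 cases. Fasting-response genes outside the members were higher in 7 of 15 and 6 of 15 cases. Under Ncoa5+/- the smallest p there were those of Sds, which breaks down serine, at -0.90 and Txnip at 0.75. Lipogenic genes were higher in 2 of 11 and 4 of 11 cases, with Srebf1, the lipogenic transcription factor, at -0.80 and -0.74. At an unadjusted p under 0.05 under Ncoa5+/-, 1 coregulator was higher and 3 lower, 2 ketogenesis and oxidation genes were higher and 2 lower, 1 peroxisomal gene was higher and 0 lower, 3 fasting-response genes were higher and 1 lower, and 1 lipogenic gene was higher and 1 lower. Over all loci the shares were 3.95% higher and 4.88% lower. In wild type mice 1 peroxisomal and 1 fasting-response gene were higher at that p, against 4.8% of loci. Lower there were 3 coregulators and 1 lipogenic gene, against 4.55% of loci, and 0 ketogenesis and oxidation genes passed in either direction. Some genes stand in more than 1 of these lists, Fgf21 and Txnip among them, and limma called 0 genes of these lists in both comparisons.

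For 2 of these comparisons the authors' deposited tables give a test of their own. For the labels at 20 weeks, the authors' deposited table marks 1 of the 38 genes, Pdk4, against 2.1% of its 13975 tested loci, with 0.707 FPKM in wild type mice, 1.58 FPKM in animals labelled Ncoa5+/- and q = 0.0301. For metformin in animals labelled Ncoa5+/-, the authors' deposited table marks 4 of the 38 (10.5%), against 1.22% of its 14159 tested loci. They are Vnn1, Acot1 and Pex11a, each with q = 0.00668, and Crat with q = 0.0461. In the authors' deposited table Pex11a went from 56.3 to 88.5 FPKM, Vnn1 from 20.7 to 31.1 FPKM, Acot1 from 25.6 to 38.02 FPKM and Crat from 28.4 to 47.6 FPKM. These 4 are among the genes that varied most between mice of 1 group, and none of them separated treated from untreated mice, whereas Hadhb, Decr1 and Eci2, which did, have q of 0.9997, 0.9997 and 0.282 in the authors' deposited table.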

How the data were processed

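Liver RNA-seq libraries of 25 mice were compared within 2 cohorts (8 mice at 20 weeks, 17 at 39 weeks), grouped by genotype label and treatment. Per the submitters' processing notes, reads were processed with Trimmomatic 0.33, TopHat2, Cufflinks and Cuffnorm on GRCm38.p5. The deposited values are FPKM per locus and mouse, scaled by the authors, and the authors' deposited comparison tables give group FPKM, log2 ratios, p-values and q-values. No counts were used, so depth is unknown. Loci that failed estimation (listed at 0 in whole groups although expressed, 15 at 20 weeks and 14 at 39 weeks) were left out, as were loci with a mean under 1 FPKM. The rest were tested as log2(FPKM + 1) in limma 3.58.1 (R 4.3.3), using lmFit, then eBayes and its trend option, in 1 fit per cohort, with Benjamini-Hochberg adjustment over all loci tested and a threshold of 0.05. Fold changes are on that log2 scale, which understates low genes. Genes were counted as higher or lower by the sign of that fold change, which can differ from that of the mean FPKM. The fit was tested on simulated data with planted changes of 2 log2 units up or down and noise independent between loci. Changes as small as those of the members, and genes that covary, were not simulated. The members and all gene lists were chosen with earlier results of these data known. All 38 genes may be named. Values in every mouse are given for Ppara, Cpt1a, Ehhadh, Acot1, Pdk4, Vnn1 and the members with the 3 smallest p in each direction of a comparison, beside complete separations. Of other lists, up to 2 genes with the smallest p are named. Alternatives changed the pseudocount, filter, scaling, variance model, libraries and groups fitted.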

Additional observations from a re-analysis of the deposited data

Results flagged for a closer look

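In groups of 4 or 5 mice, 8 of 195 sets of values held 1 mouse whose gap to the nearest other mouse was large for the group's range. Chance flags about 1 in 20 groups, which would be 9.75 of these. At 20 weeks, Ppara stood at 71.9 FPKM in replicate 1 of the mice labelled Ncoa5+/-, with the nearest other at 23.1 FPKM. In the same group Ech1, an auxiliary enzyme for unsaturated chains, stood at 237 FPKM in replicate 3 against 290.8 FPKM, and Pdk4 at 1.18 FPKM in replicate 1 against 1.83 FPKM. Etfdh stood at 161 FPKM in wild type replicate 2, with the nearest other at 123 FPKM. At 39 weeks, in the untreated mice labelled Ncoa5+/-, Crot stood at 159 FPKM in replicate 3 against 131 FPKM, Eci2 at 139.9 FPKM in replicate 5 against 194 FPKM, and Etfb at 597 FPKM in replicate 2 against 472 FPKM. Hsd17b4 stood at 167 FPKM in treated Ncoa5+/- replicate 1, with the nearest other at 208 FPKM.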

How the results depend on the processing

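Single log2 fold changes were followed only for members with an unadjusted p under 0.05 or among the 3 smallest p in a direction. Each was counted once per comparison and alternative. Of these cases, 1762 kept their direction and their side of the threshold, 14 turned and 9 newly passed it. The stability of the other members, among them those with differences nearest 0, was not examined. The members' median moved by less than the spread between mice in all 197 cases, but changed sign in 3 comparisons where it was near 0, ranging from -0.14 to 0.05 for the labels at 20 weeks, -0.04 to 0.04 for metformin in wild type mice and -0.0052 to 0.05 for the labels averaged over treatment. In the other 6 it kept its sign. In mice labelled Ncoa5+/-, the count of members higher with metformin at an unadjusted p under 0.05, 19, ranged from 10 to 19 when 1 mouse was left out, and was 15 to 21 under other settings. The same count ranged from 0 to 5 for the labels at 20 weeks, 0 to 1 and 0 to 9 for those at 39 weeks untreated and treated, 0 to 2 for metformin in wild type mice, 3 to 11 for treated Ncoa5+/- against untreated wild type, 1 to 5 and 6 to 13 for the averaged labels and metformin, and 2 to 6 for the interaction. The count of members called by limma went from 0 to 1 between treated Ncoa5+/- and untreated wild type mice after quantile normalization (Hadhb) and without the libraries in which 50 loci hold over 70% (Crot), and was 0 to 1 when 1 mouse was left out. For metformin averaged over genotype it became 1, Hadhb, with a filter at a mean of 5 FPKM, after quantile normalization, with array weights and with failed estimates kept at 0, and was 0 to 1 when 1 mouse was left out. After quantile normalization the label difference in treated mice turned to 0.0635 for Etfb and 0.00412 for Acaa1a, the metformin difference in mice labelled Ncoa5+/- to 0.00563 for Acads, and the interaction to 0.0402 for Etfb. When 1 mouse was left out, Acads ranged from -0.0393 to 0.0236 and Acot3 from -0.39 to 0.27 for metformin in mice labelled Ncoa5+/-, Acaa1a between labels in treated mice from -0.122 to 0.0300, Hadh in treated Ncoa5+/- against untreated wild type from -0.121 to 0.0130 and the interaction of Etfb from -0.0958 to 0.0211. The cause was not tested. Counts of all loci called ranged over the alternatives from 0 to 13 for the labels at 20 weeks, 11 to 38 for those at 39 weeks untreated and 4 to 31 treated, 0 to 4 for metformin in mice labelled Ncoa5+/-, 0 to 2 in wild type mice, 0 to 69 averaged over genotype, 14 to 76 for treated Ncoa5+/- against untreated wild type and 0 to 5 for the interaction. No paired analysis was possible because the labels carry no replicate numbers, and mice were numbered in accession order only. Depth is unknown, so the precision of low genes such as Pdk4 and Acot2 could not be set from counts.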
